A study of Mus musculus with 8 samples.

Results

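The let-7 miRNAs of mouse that are encoded outside the cluster on chromosome 17 were examined in basal progenitors of the embryonic cerebral cortex. They were the 9 named miRNAs of the array design mmu-let-7a, mmu-let-7b, mmu-let-7c, mmu-let-7d, mmu-let-7d*, mmu-let-7f, mmu-let-7g, mmu-let-7i and mmu-miR-98 (written below without mmu-), out of 611 mouse miRNAs with probes, and were chosen by name and not by their measured values. Total RNA of cortical basal progenitors, isolated by fluorescence-activated sorting, was compared between embryonic day 16 (E16, 4 arrays) and embryonic day 13 (E13, 4 arrays). The sample labels mark the embryos as wild type and name no treatment, strain or transgene, and the sources used here do not state the sorting gate. Each stage drew its 4 biological replicates from 3 litters per the submitters' design text, so some replicates may share a litter, and the tests treated the 4 as independent.

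Basal progenitors are precursors that have left the ventricular surface of the developing cortex and divide mostly to give neurons. The let-7 miRNAs are made from many genes, and their mature forms bind messenger RNAs through a short seed near the 5′ end. Lin28 proteins block the processing of let-7 precursors in early progenitors, and mature let-7 accumulates as neural tissue matures. In the developing brain let-7 is known to repress messenger RNAs of proliferation factors. In each precursor hairpin the mature arm is usually kept, and the opposite arm, marked by a star, is usually lost.

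The mature sequences are shown because the miRNAs differ from each other by few bases, which matters for what a probe can tell apart. All 9 matched an entry in RefSeq (GRCm38.p6). Capitals mark the seed, bases 2 to 8 from the 5′ end.
let-7a: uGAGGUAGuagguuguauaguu
let-7b: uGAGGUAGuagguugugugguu
let-7c: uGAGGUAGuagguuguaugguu
let-7d: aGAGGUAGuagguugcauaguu
let-7f: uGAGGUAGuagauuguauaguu
let-7g: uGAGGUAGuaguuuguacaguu
let-7i: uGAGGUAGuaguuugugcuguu
miR-98: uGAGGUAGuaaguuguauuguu
let-7d*: cUAUACGAccugcugccuuucu

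The seed GAGGUAG was shared by 8 of the 9, and 11 of the 1679 mature names in the RefSeq table carried it. let-7d* comes from the other arm of the let-7d hairpin and has the seed UAUACGA. Counted from 1 at the 5′ end, with the base of let-7a first, let-7c differs from let-7a by A19G and let-7f by G12A. let-7b differs by A17G and A19G, let-7d by U1A and U16C, let-7g by G12U and U18C, and miR-98 by G11A and A19U. let-7i is the most distant, with G12U, A17G, U18C and A19U.

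The genes of the family lie at several places in the genome, given here on GRCm38 from RefSeq. On chromosome 13, Mirlet7d (48536012 to 48536114), Mirlet7f-1 (48537829 to 48537917) and Mirlet7a-1 (48538179 to 48538272) follow each other on the minus strand and overlap no other annotated gene. On chromosome 15, Mirlet7c-2 (85706603 to 85706697) and Mirlet7b (85707319 to 85707403) lie 621 bases apart on the plus strand inside the long non-coding RNA gene Lncppara. On chromosome 9, Mirlet7a-2 (41536716 to 41536811) shares the long non-coding RNA gene Mir100hg with Mir100 and Mir125b-1. Mirlet7c-1 on chromosome 16 (77599657 to 77599750) lies 656 bases from Mir99a.

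The other loci hold 1 or 2 members each. Mirlet7g (chromosome 9, 106178840 to 106178927) lies within the protein-coding gene Wdr82, and Mirlet7i (chromosome 10, 122985640 to 122985724) overlaps no other annotated gene. Mirlet7f-2 (151912346 to 151912428) and Mir98 (151913214 to 151913321) lie on chromosome X within Huwe1, which encodes a ubiquitin ligase. let-7a, let-7c and let-7f each have 2 genes with the same mature sequence, so their signal cannot be assigned to a locus.

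The array probes are DNA complements of the 3′ part of each miRNA, and each begins at the complement of base 22. The probes that stood for the miRNAs with a seed of let-7 are shown because their differences set how well the miRNAs can be told apart. Capitals mark letters that differ from the complement of let-7a.
let-7a probe: aactatacaacctactacct
let-7b probe: aacCaCacaacctactacc
let-7c probe: aacCatacaacctactacc
let-7d probe: aactatGcaacctactacc
let-7f probe: aactatacaaTctactacctc
let-7g probe: aactGtacaaActactacctc
let-7i probe: aacAGCacaaActactacctc
miR-98 probe: aacAatacaacTtactacctca

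The let-7a probe has 1 mismatch to each of let-7c, let-7d and let-7f. The let-7b probe has 1 mismatch to let-7c and 2 to let-7a. The let-7i probe has at least 2 mismatches to every other member with the same seed. How much signal such near matches add was not tested. On mm9, the build of the files, the let-7b probe was placed on chromosome 15 from 85537759 to 85537776, and the let-7d probe on chromosome 13 from 48631400 to 48631417. Such single-site spans in the files are 1 base shorter than the probe.

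Array signals were scaled so that the 75th percentile over 126 probes, those well above background on all 8 arrays, became 1, and the log2 was taken. The processed signal at that percentile was 609, 748, 282 and 109 on E16 replicates 1 to 4, and 162, 317, 490 and 294 on E13 replicates 1 to 4. E16 replicate 4 was the dimmest array, with 76 miRNAs detected (well above background), whereas the other E16 arrays detected 125 to 168 and the E13 arrays 117 to 205. Its values are included throughout and results that rest on it are given without it. The arrays came from 3 slides, with E16 replicate 1 alone on slide 1. All E16 arrays lay in row 1 of a slide and all E13 arrays in row 2, so the row effect and the stage effect cannot be told apart.

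The cell label was set against marker miRNAs. Of 4 miRNAs of the neural lineage, miR-9, miR-9* and miR-124 were detected on all 8 arrays, and miR-92b on 1 E16 array and 4 E13 arrays. miR-92b was lower at E16 (log2 difference -1.59, limma adjusted p = 0.00019). Its E16 mean of -5.94 lay near the floor of the scaled values (log2 -5.96), so the size and the p of that difference rest in part on the floor. None of the 6 miRNAs of blood and microglia, 2 of endothelium, 8 of mesenchyme or 5 of epithelium was detected on any array. Of 7 neuronal miRNAs, all detected on some array, 3 were lower at E16 and 0 higher, beside 26.1% lower and 7.19% higher over all 153 tested. Among those 3, miR-153 was detected on 0 E16 arrays, where its mean stood at the floor. The summed scaled signal of the 7 was 0.495 to 1.86 at E16 and 1.12 to 1.38 at E13. Neither of the oligodendrocyte-lineage miRNAs changed by the test, and their summed scaled signal was 0.0969 to 0.264 at E16 and 0.157 to 0.239 at E13. No marker miRNA that separates basal progenitors from other cortical progenitors was on these lists, and the part that neuronal content played in the let-7 results was not tested. In bulk RNA, fewer cells of a type and less RNA per cell cannot be told apart.

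The question of the comparison was whether the let-7 miRNAs differ in level between E16 and E13, a later and an earlier time in the making of cortical neurons. At E16, 4 of the 9, let-7b, let-7c, let-7a and let-7f, rose by the limma test (adjusted p under 0.05 over 153 tested miRNAs), 0 fell and 5 did not pass. Over all 153 miRNAs tested, 7.19% were higher at E16 and 26.1% lower. All 9 log2 differences (E16 minus E13) were above 0, as were 29.4% of those over all tested miRNAs. The median difference was 0.72 for the 9 and -0.40 for all tested. In 5 of the 9, let-7a, let-7b, let-7c, let-7f and let-7i, every E16 array lay above every E13 array, which held for 7.84% of the tested miRNAs.

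**Figure D1:**
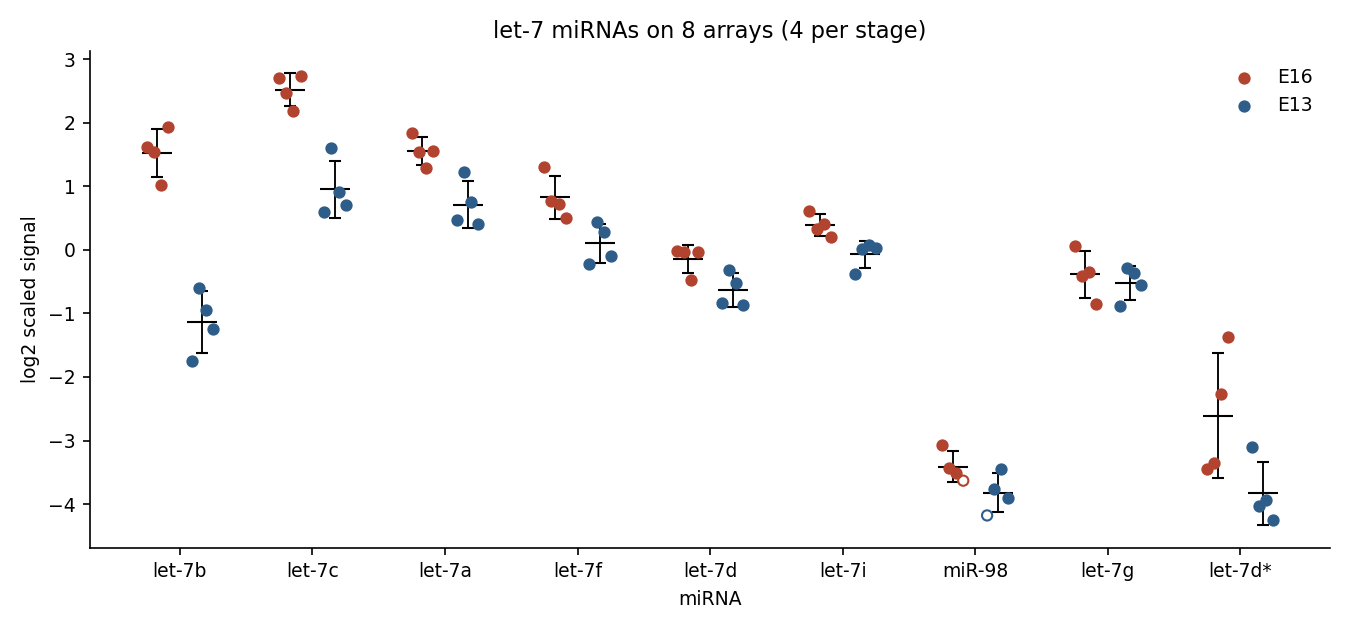
Log2 scaled signal (vertical axis) of each let-7 miRNA (horizontal axis), with 1 point per array, E16 left and E13 right of each pair, bars for the mean and SD of 4 arrays, and open points where the probe was not well above background. The E16 points of let-7b, from 1.02 to 1.93, lie above the E13 points, from -1.75 to -0.59, while those of let-7g overlap.

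let-7b, encoded at a single locus on chromosome 15, had the largest difference of the 9. Its log2 scaled signal was 1.62, 1.54, 1.02 and 1.93 on E16 replicates 1 to 4, against -1.75, -0.59, -0.95 and -1.25 on E13 replicates 1 to 4. The lowest E16 array was thus well above the highest E13 array. The same could be seen without scaling, where the processed signal of let-7b was 1876, 2172, 570 and 414 on the E16 arrays, against 48.4, 210, 253 and 123 on the E13 arrays. The difference was 2.66 (SE 0.28, 95% confidence interval 2.02 to 3.30, limma adjusted p = 7.9e-05), or 6.33-fold, the largest rise among the 153 miRNAs tested. Blocking on the slide gave 2.68 and slide 2 by itself 2.45, both with the call. Slide 3, which held 1 E16 array and is given here and below as a value with no test, showed 3.03.

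let-7c, a mature form shared by the neighbour gene of Mirlet7b on chromosome 15 and a gene beside Mir99a on chromosome 16, followed. Its log2 scaled signal was 2.70, 2.46, 2.18 and 2.74 on E16 replicates 1 to 4, against 0.59, 1.60, 0.92 and 0.70 on E13 replicates 1 to 4. The stages did not overlap, and E13 replicate 2 was the nearest of its stage to the E16 arrays. The difference was 1.57 (SE 0.25, interval 1.01 to 2.13, limma adjusted p = 0.0010), or 2.97-fold. Blocking on the slide gave 1.51 with the call, and slide 3 showed 1.93. Slide 2 by itself gave 1.23, where the call was lost (limma adjusted p = 0.083).

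let-7a and let-7f, mature forms that share the chromosome 13 cluster and each have a further gene elsewhere, rose with smaller estimated differences. let-7a was at 1.84, 1.54, 1.29 and 1.56 on E16 replicates 1 to 4, against 0.46, 1.22, 0.74 and 0.41 on E13 replicates 1 to 4. E13 replicate 2, at 1.22, came close to the lowest E16 array, at 1.29, without overlap. The difference was 0.85 (SE 0.22, interval 0.35 to 1.34, limma adjusted p = 0.015), or 1.80-fold. The call of let-7a was lost without E13 replicate 1 (0.76, limma adjusted p = 0.053) or without E13 replicate 4 (0.75, limma adjusted p = 0.051). Blocking on the slide (0.74) and slide 2 by itself (0.57) ended it too, and slide 3 showed 0.98.

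let-7f was at 1.30, 0.77, 0.73 and 0.50 on E16 replicates 1 to 4, against -0.22, 0.44, 0.28 and -0.09 on E13 replicates 1 to 4. The stages came close to each other without overlap, at E16 replicate 4 and E13 replicate 2. The difference was 0.72 (SE 0.23, interval 0.21 to 1.24, limma adjusted p = 0.033), or 1.65-fold. This call ended without any 1 of E13 replicates 1, 3 and 4 or of E16 replicates 1, 2 and 3, with differences from 0.57 to 0.78 and limma adjusted p from 0.055 to 0.098. Blocking on the slide (0.55), slide 2 by itself (0.64) and the replicate block (limma adjusted p = 0.085) ended it as well, and slide 3 showed 0.41.

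**Figure D2:**
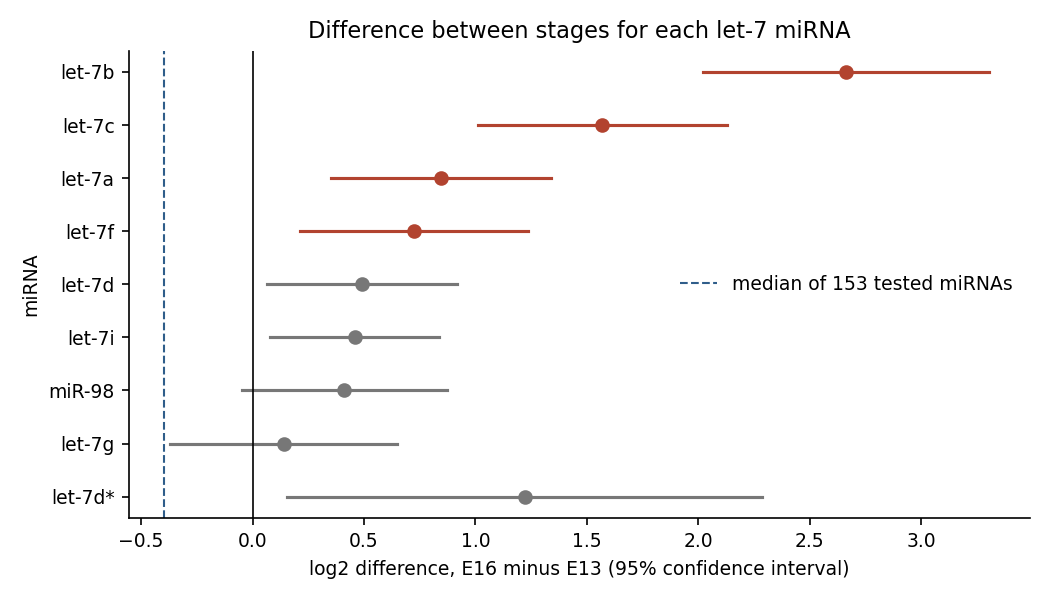
Log2 difference (E16 minus E13, horizontal axis) of each let-7 miRNA (vertical axis) with its 95% confidence interval from limma, red where the adjusted p was under 0.05, and a dashed line at the median of the 153 tested miRNAs, -0.40. let-7b lies farthest right at 2.66, and let-7g and miR-98 have intervals that include 0.

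let-7i and let-7d, each encoded at 1 locus, were positive without passing. let-7i was at 0.62, 0.33, 0.41 and 0.21 on E16 replicates 1 to 4, against -0.39, 0.01, 0.07 and 0.04 on E13 replicates 1 to 4. The stages did not overlap, but E16 replicate 4 lay close to 3 of the E13 arrays. Its difference was 0.46 (SE 0.17, interval 0.08 to 0.84, limma adjusted p = 0.064). Without E16 replicate 4 it was 0.52 and passed (limma adjusted p = 0.031).

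let-7d was at -0.02, -0.04, -0.48 and -0.04 on E16 replicates 1 to 4, against -0.83, -0.32, -0.52 and -0.86 on E13 replicates 1 to 4. E16 replicate 3 lay among the E13 arrays, while the other E16 arrays lay above all of them. The difference was 0.49 (SE 0.19, interval 0.07 to 0.92, limma adjusted p = 0.072). It passed without E16 replicate 3 (0.60, limma adjusted p = 0.049) or without E13 replicate 2 (0.60, limma adjusted p = 0.042).

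let-7g, from its own locus in Wdr82, showed the least difference of the 9. Its values were 0.06, -0.41, -0.35 and -0.85 on E16 replicates 1 to 4, against -0.88, -0.29, -0.36 and -0.56 on E13 replicates 1 to 4. The stages overlapped almost fully. The difference was 0.14 (SE 0.22, interval -0.37 to 0.65, limma adjusted p = 0.65), and it turned to -0.0093 without E16 replicate 1, -0.028 when blocking on the slide and -0.38 on slide 3 by itself.

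miR-98, which carries the let-7 seed and is encoded beside Mirlet7f-2, lay close to background. Its values were -3.07, -3.43, -3.51 and -3.63 on E16 replicates 1 to 4, against -4.18, -3.76, -3.44 and -3.91 on E13 replicates 1 to 4, and it was not well above background on E16 replicate 4 and E13 replicate 1. The stages overlapped through E13 replicate 3. The difference of 0.41 (SE 0.20, interval -0.05 to 0.87, limma adjusted p = 0.14) did not pass.

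The number of members that passed depended on the scaling. Taking the percentile over all 1759 mouse probes, detected or not, moved the median of all 153 miRNAs to 0.42. All 9 members were then higher, beside 30.7% of all tested higher and 10.5% lower. Only 76 to 205 of the 611 mouse miRNAs were detected per array, and the part of dim probes in that scaling was not tested. With quantile normalization the median of all was -0.09 and 7 members were higher, beside 13.1% of all tested higher and 17.6% lower. With normexp background correction, which also added a constant of 50 to every spot, the median of all was -0.20. There 2 members, let-7b and let-7c, were higher, beside 3.27% of all tested higher and 1.31% lower. The part of the added constant was not tested. let-7b was higher in each of these and 0 members were lower in any.

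Some other choices moved the count as well. Without a filter on dim probes 2 members were higher, beside 1.31% of 611 miRNAs. Blocking on the slide gave 3, let-7b, let-7c and let-7d*, beside 6.54%. The replicate block gave 3, let-7a, let-7b and let-7c, beside 6.54%. Slide 2 by itself left 1 member, let-7b, beside 5.88%. Without E13 replicate 1 or without E13 replicate 4, 2 members were higher, let-7b and let-7c, beside 5.88% in each case.

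**Figure D3:**
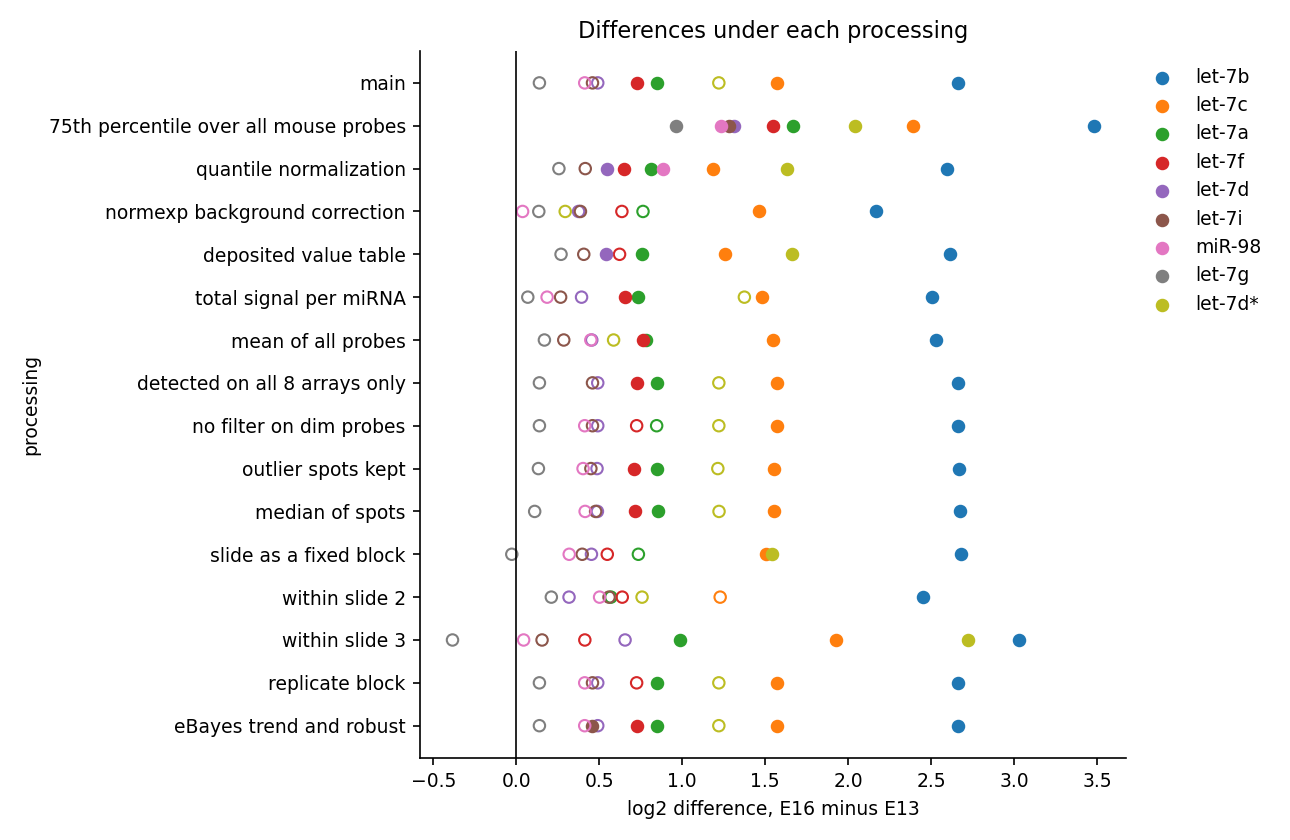
Log2 difference (E16 minus E13, horizontal axis) of each let-7 miRNA under each processing of the data (vertical axis), filled where the limma adjusted p was under 0.05 and open where it was not. On the line of slide 3, 1 E16 array stands for its stage, so only the positions there are read and not the fill. let-7b is filled in every other line. let-7g lies below 0 when blocking on the slide (-0.028) and on slide 3 by itself (-0.38).

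A ratio of 2 miRNAs on the same array does not depend on the array scaling, so the members' changes were also set against each other. Among the 8 members detected on all arrays there are 28 pairs, and for each the log2 ratio was compared between stages with a two-sided exact permutation test over 70 assignments. In 14 pairs the exact p was 0.029, the smallest that 4 against 4 arrays allow, and after Benjamini-Hochberg adjustment over the 28 pairs each stood at 0.057, so 0 pairs passed. let-7b was in 6 of these 14 pairs and let-7c in 6, in each case with every other member except let-7d*.

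The log2 ratio of let-7a to let-7b lay from -0.37 to 0.27 on the E16 arrays, and from 1.66 to 2.21 on the E13 arrays. The stages were far apart, with a mean of 0.03 ± 0.29 at E16 and 1.85 ± 0.25 at E13 (SD, n = 4 each). The ratio thus differed by -1.82 (exact permutation p = 0.029, adjusted p = 0.057). let-7a and let-7b differ by 2 bases, and the probes have 2 mismatches to each other's target.

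The log2 ratio of let-7b to let-7c lay from -1.17 to -0.81 on the E16 arrays and was at most -1.87 on the E13 arrays, so the stages did not overlap, and it differed by 1.09 (exact permutation p = 0.029, adjusted p = 0.057). The ratio of let-7b to let-7g showed the widest gap, 2.52, and that of let-7c to let-7g was 1.43. The ratio of let-7a to let-7g differed by 0.71 and that of let-7f to let-7g by 0.59, both at the same exact permutation p of 0.029.

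Smaller differences were seen in other pairs. The ratio of let-7a to let-7f, which share a cluster, differed by 0.12 (limma interval -0.40 to 0.64, exact permutation p = 0.43), and that of let-7d to let-7i by 0.03 (limma interval -0.46 to 0.52, exact permutation p = 0.86). let-7a and let-7d, also of that cluster, had a ratio difference of 0.35 at the smallest exact permutation p, 0.029, with a limma interval of -0.13 to 0.84 that includes 0. The interval for let-7a and let-7f still holds a difference as large as the 0.59 between let-7f and let-7g.

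A limma fit to the ratios was not planned and was chosen after 0 pairs had passed the exact test once adjusted. A pair was called only when it passed in ratio to each of its members. This held for 13 of the 28 pairs, all among the 14. The same fit was read over all tested miRNAs. Over the 152 remaining tested miRNAs it called 98.7% in ratio to let-7b and 94.1% in ratio to let-7c, and 32.2% in ratio to let-7g, the lowest share among the 8 members. By the rule for pairs, let-7b and let-7c were each called in 6 of their 7 pairs, all but the pair with let-7d*. The shares over all tested miRNAs rest on a single fit each, so they are not a like measure. In ratio to let-7b alone, let-7d* passed too (limma adjusted p = 0.0065). let-7g was called in 4 of its 7 pairs.

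**Figure D4:**
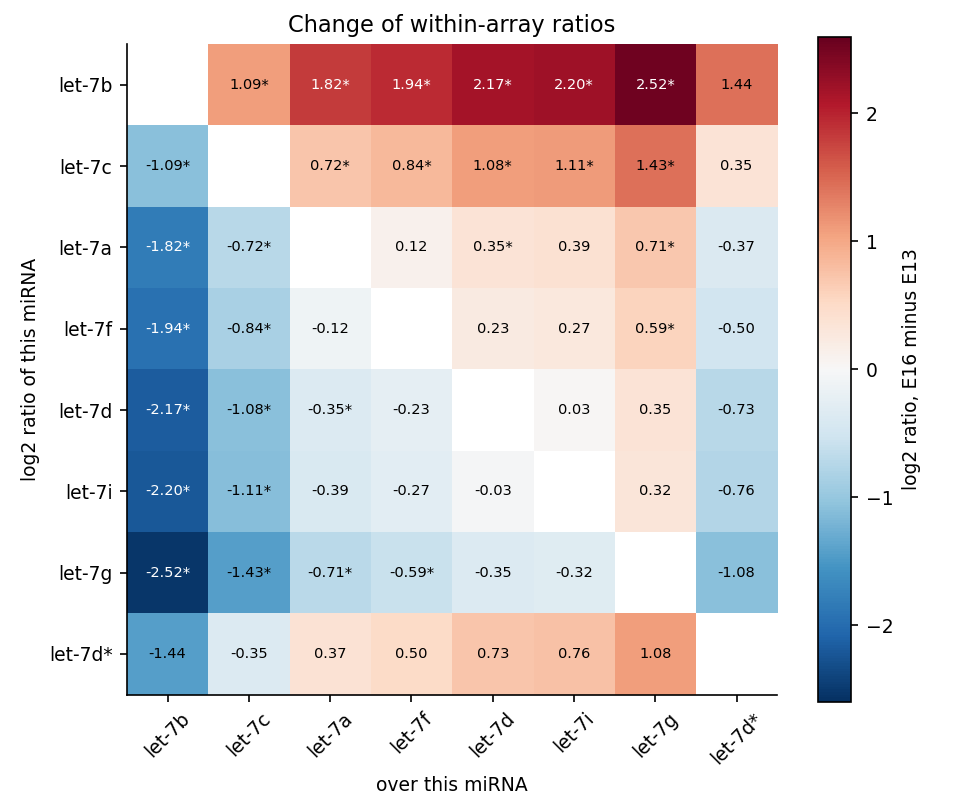
Difference between stages (E16 minus E13, colour and number) in the log2 ratio of the miRNA in each row over the miRNA in each column, for the 8 members detected on all 8 arrays. Asterisks mark an exact permutation p of 0.029, and all of these but 2 pairs with let-7g and 1 of let-7a with let-7d involve let-7b or let-7c.

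let-7d and let-7d* are the arms of the same hairpin on chromosome 13, and both were detected on all 8 arrays. The log2 scaled signal of let-7d* was -3.45, -3.36, -2.27 and -1.37 on E16 replicates 1 to 4, against -3.11, -4.03, -3.93 and -4.25 on E13 replicates 1 to 4. E16 replicates 3 and 4 stood above the rest, and E13 replicate 1 lay above E16 replicates 1 and 2. The difference of 1.22 (SE 0.47, interval 0.15 to 2.29) did not pass (limma adjusted p = 0.072). It passed when blocking on the slide (1.54, limma adjusted p = 0.039), without E16 replicate 1 (limma adjusted p = 0.032), with quantile normalization (1.63, limma adjusted p = 0.030) and in the deposited value table (1.66, limma adjusted p = 0.027). It was 0.81 without E16 replicate 4, 0.76 on slide 2 by itself and 2.72 on slide 3, and 0.29 with normexp correction (limma adjusted p = 0.84).

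Before scaling the stages did not overlap for let-7d*. Its processed signal was 55.8, 73.1, 58.4 and 42.0 on E16 replicates 1 to 4, against 18.8, 19.4, 32.1 and 15.4 on E13 replicates 1 to 4. It varied little among the E16 arrays, while let-7d on the same arrays was at 601, 729, 203 and 106, against 91.4, 254, 342 and 162 on the E13 arrays. On E16 replicates 3 and 4 let-7d followed the lower overall brightness of those arrays and let-7d* did so less.

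The log2 ratio of let-7d to let-7d* was 3.43, 3.32, 1.79 and 1.34 on E16 replicates 1 to 4, against 2.28, 3.72, 3.41 and 3.39 on E13 replicates 1 to 4. Low ratios occurred on E16 replicates 3 and 4 and on E13 replicate 1, the 3 arrays with the smallest scaling values. The mean was 2.47 ± 1.06 at E16 and 3.20 ± 0.63 at E13 (SD, n = 4 each), a difference of -0.73 that did not pass (two-sided exact permutation p = 0.23, smallest possible 0.029). It was -0.35 without E16 replicate 4, -0.44 within slide 2, -2.06 within slide 3, and 0.081 with normexp correction, so no direction is given. The normexp correction added 50 to every spot, where the processed signal of let-7d* was 15.4 to 73.1, and the part of that constant was not tested. The part that array brightness played was not tested.

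**Figure D5:**
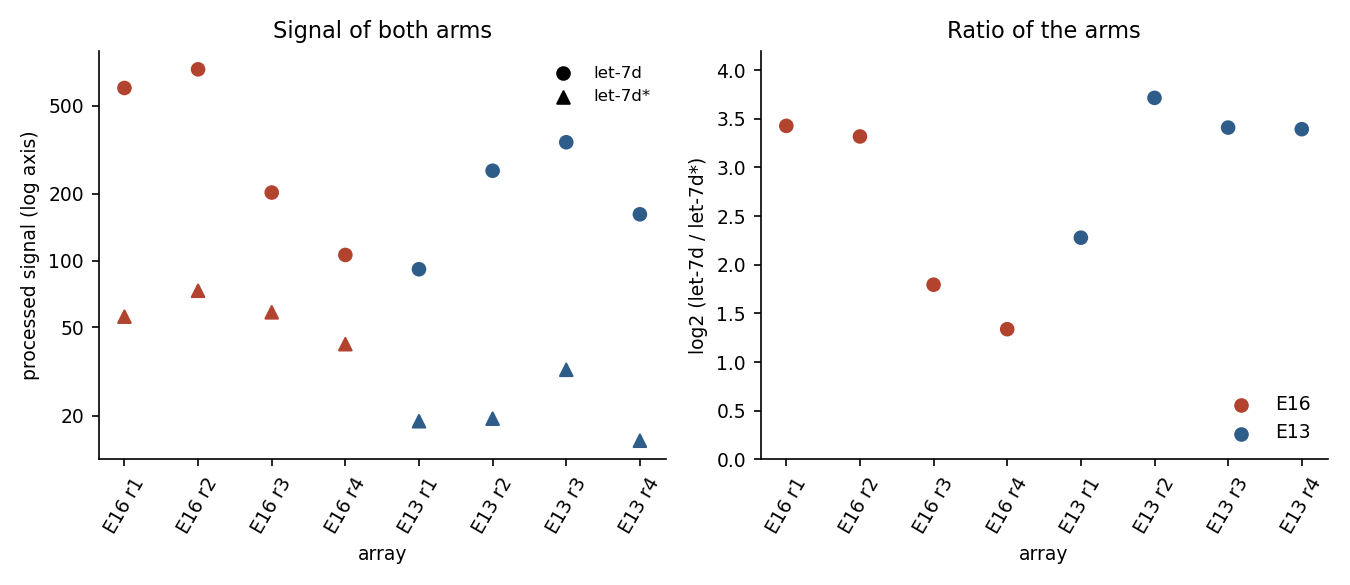
Left, processed signal (log axis) of let-7d (circles) and let-7d* (triangles) on each array (r1 to r4 are replicates). Right, the log2 ratio of let-7d to let-7d* on the same arrays, which ranges from 1.34 to 3.43 at E16 and from 2.28 to 3.72 at E13.

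The 4 probes for let-7d* are nested, and are shown because detection went with their length. Capitals mark the letters beyond the shortest probe.
let-7d* probe of 15 bases: agaaaggcagcaggt
let-7d* probe of 16 bases: agaaaggcagcaggtC
let-7d* probe of 17 bases: agaaaggcagcaggtCG
let-7d* probe of 18 bases: agaaaggcagcaggtCGT

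The probes of 15 and 16 bases were detected on 0 arrays. That of 17 bases was detected on 4 E16 arrays and 0 E13 arrays, with processed signals of 12.2, 15.5, 14.2 and 10.8 on E16 replicates 1 to 4, against 3.65, 3.62, 6.50 and 2.91 on E13 replicates 1 to 4. All E16 values lay above all E13 values, as with the probe of 18 bases, before scaling. After scaling the stages overlapped for the probe of 17 bases too. There E13 replicate 1, at -5.48, lay above E16 replicates 1 and 2, at -5.64 and -5.59. The remaining E13 arrays were at the floor of the scaled values (log2 -5.96).

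Brightness depended on the probe. In the 8 members with a pair of probes the longer probe was brighter on 64 of 64 occasions over the 8 arrays, by 0.44 to 2.96 on the log2 scale (median 1.84). A probe's brightness is therefore no measure of how much of one member there was relative to another, and no order of abundance among the members is given. The difference between stages was less dependent on the probe. The probes of a member gave log2 differences that lay 0.04 to 0.35 apart (median 0.08), with the widest gap for let-7i, at 0.46 and 0.11.

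Spots of a probe varied little on an array. The coefficient of variation was taken on arrays where the probe was detected. Over the 8 to 10 spots used it was 2.21% to 14.8% (median 7.48%) in the brighter members. It was 6.31% to 19.1% in let-7d* and miR-98, where let-7d* had 5 spots. On E16 replicate 4, where miR-98 was not detected, its value was 19.8%. The number of arrays and not of spots limits the precision of each difference.

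The genes beside let-7 genes were examined for their own signal. miR-99a, whose gene lies by Mirlet7c-1, averaged 1.55 ± 0.25 at E16 and 0.02 ± 0.05 at E13 on the log2 scaled scale (SD, n = 4 each). miR-100 averaged -1.04 ± 0.21 at E16 and -2.78 ± 0.21 at E13, and miR-125b-5p, which has genes in several places, averaged 4.29 ± 0.19 at E16 and 3.25 ± 0.19 at E13. All 3 rose by the limma test, beside 7.19% of all tested miRNAs. let-7a and let-7c, which each have 1 gene at those loci and another elsewhere, rose too. Their signal cannot be assigned to a locus, and the part of a shared locus was not tested.

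The 5 miRNAs outside the family with scaled values most like those of let-7b over the 8 arrays were miR-125b-5p (Pearson r = 0.965), miR-100 (0.954), miR-99a (0.918), miR-497 (0.910) and miR-181a (0.907). The same 5 were most like the mean of the members detected on all arrays, with r from 0.953 to 0.856. Of these, miR-497 was detected on 3 E16 arrays and 1 E13 array. Its E13 mean of -5.92 lay near the floor of the scaled values (log2 -5.96), so its correlations rest in part on that floor. These correlations describe 8 arrays in 2 stages that share the scaling. Taken within the 4 arrays of a stage, those with let-7b differed in sign between the stages for all but miR-125b-5p. miR-125b-5p was at 0.69 over the E16 arrays and 0.49 over the E13 arrays, and miR-99a at -0.86 and 0.60. With the members' mean, miR-125b-5p was positive and miR-181a negative in both stages, and the others differed in sign.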

How the data were processed

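Per the labels' protocols, total RNA from sorted cells was labelled with Cy3, and each replicate had its own Agilent miRNA array. Per the file headers, the deposited scanner files came from Agilent Feature Extraction 10.7.3.1 with probes placed on mm9, and hold mean, local background and background-subtracted processed intensity per spot. The deposited value table holds log2 values of 86 miRNAs that rank spots as the processed intensities do, with a median of 6.90 in each column, and was used as an alternative. The sources used here do not name its software.

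Control spots and spots with outlier flags (2.01% to 3.86% per array) were left out, and no spot was saturated. Spots were averaged per probe. A probe was detected when a share of at least 0.5 of its spots was well above background. Each array was divided by its 75th percentile over the 126 mouse probes detected on all 8 arrays, floored at percentile 1 of detected signals (log2 -5.96), and log2 was taken. The probe with the highest mean stood for its miRNA, and 153 miRNAs, those detected on 4 or more arrays, were tested.

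Stage differences were fitted by limma 3.58.1 (R 4.3.3, lmFit and eBayes), two-sided, Benjamini-Hochberg over the 153, threshold 0.05, after tests on simulated data. Ratios within arrays were tested by exact permutation of the stage labels (Python 3.11.15). Every member was named, with 3 miRNAs encoded beside let-7 genes and the 5 most like let-7b or the members' mean. The members, lists and alternatives were chosen with earlier results of these data known. Replicate numbers were not used as pairs in the main fit. Deviations of same-numbered arrays correlated at -0.10, 0.07, 0.27 and -0.15, which cannot show whether such arrays were handled together. Alternatives covered scaling, background correction, value source, probe choice, filters, slides, the replicate block and leaving out each array.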

Additional observations from a re-analysis of the deposited data

Results flagged for a closer look

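In 4 of 74 groups of 4 arrays, over the members and their pair ratios, 1 array stood far from the other three by Dixon's test, where chance gives about 1 in 20. let-7d was at -0.48 on E16 replicate 3, with the nearest other E16 array at -0.04. let-7i was at -0.39 on E13 replicate 1, with the nearest other E13 array at 0.01. The log2 ratio of let-7a to let-7d was 1.54 on E13 replicate 2, with the nearest other E13 array at 1.29. The log2 ratio of let-7d* to let-7g was -2.22 on E13 replicate 1, with the nearest other E13 array at -3.57.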

How the results depend on the processing

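The number of members higher at E16, 4 as reported, became 9 when all mouse probes set the percentile, 7 with quantile normalization, 2 with normexp correction, 2 with no filter on dim probes and 1 within slide 2, and it ran from 2 to 5 when each array was left out in turn, with 2 without E13 replicate 1 or E13 replicate 4. It was 3 with the replicate block, where let-7f was lost, and whether same-numbered arrays form pairs is not known. Slide 3 aside, the number lower stayed 0 in all alternatives run, where 1.31% to 35.3% of all tested miRNAs were lower. The median of the members was 1.55 when all mouse probes set the percentile, 0.39 with normexp correction and 0.57 to 0.84 leaving out arrays. Slide 3 by itself, with 1 E16 array, was left out of the counts of calls. let-7b kept its call in every other alternative, and let-7c in all of those but slide 2 by itself. let-7a lost its call in 6 of those and let-7f in more. Of 205 differences over members and alternatives, 202 were positive, and the 3 negative ones were let-7g when blocking on the slide (-0.028), on slide 3 by itself (-0.38) and without E16 replicate 1 (-0.0093, the low end of a range up to 0.29 leaving out arrays). The difference in the ratio of let-7d to let-7d* was 0.081 with normexp correction and -2.06 within slide 3, and from -1.05 to -0.35 leaving out arrays. The exact test of pairs could pass after adjustment only if more pairs reached the smallest p than did in any alternative, with 9 to 15 pairs at an unadjusted exact permutation p under 0.05 across the alternatives, 14 as reported and 13 with limma on the ratios. With the replicate block the smallest exact permutation p is 0.125, which cannot pass. Within slides no count of pairs is given, since pairs without overlap keep their direction in any subset of arrays. The causes were not tested. Slide 2 held 2 arrays of each stage, so the spread there rests on few arrays.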

Other observations

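The other star arms with a let-7 name and a probe on the array, those of the chromosome 17 cluster left out, were near background. let-7a*, let-7b*, let-7f*, let-7g* and let-7i* were detected on 0 arrays of either stage, with processed signals between -2.82 and 2.45. let-7c-1*, from the hairpin beside Mir99a, was detected on 2 E16 arrays and 1 E13 array, with a processed signal of 4.38 to 21.5 at E16 and 3.16 to 10.1 at E13. Among the star arms named here, let-7d* was thus the 1 detected on all 8 arrays.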
